A study of Mus musculus with 16 samples.

Results

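The genes described here are 8 genes of the MHC class II pathway of antigen presentation, H2-Aa, H2-Ab1, H2-Eb1, Cd74, H2-DMa, H2-DMb1, Ctss and Ciita, taken by their symbols from the 50559 gene symbols measured in mouse liver. All 8 were found in the table, and all 8 passed the filter on low counts, which left 18335 genes. The study compared 2 ways of blocking ketohexokinase (KHK), the enzyme that phosphorylates fructose, and sequenced liver RNA of 16 male C57BL/6J mice, 4 in each of 4 groups. The mice were 6 weeks old when their diet began and stayed on it for 10 weeks, with treatment over the last 4 weeks. Mice of the LFD group (a low-fat diet that the labels call chow) and of the HFD group (high-fat diet) were injected every 2 weeks with luciferase control siRNA (10 mg/kg) and gavaged with methylcellulose. Mice of the HFD + siRNA group ate the high-fat diet and were given siRNA against Khk (20 mg/kg, on the same schedule) along with methylcellulose. Mice of the HFD + Inhib group ate the high-fat diet, were injected with luciferase siRNA like the controls and were gavaged 2 times a day with PF-06835919, an inhibitor of KHK, at 15 mg/kg. The siRNA carries a GalNAc tag that directs it to hepatocytes, while the inhibitor is given by mouth and is not directed to one cell type. Libraries held 24317111 to 35820234 expected counts. Levels are given in CPM (counts in each 1000000 of the scaled library total), as mean ± SD over 4 mice.

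MHC class II molecules carry peptides from proteins that a cell has taken up, or digested in its lysosomes, and show them to CD4+ T cells. An alpha and a beta chain pair in the endoplasmic reticulum around the invariant chain, encoded by Cd74, which blocks the groove and sorts the complex to endosomes. Cathepsin S, encoded by Ctss, trims the invariant chain there to a short fragment, and H2-DM, a pair of chains encoded by H2-DMa and H2-DMb1, exchanges that fragment for a peptide. CIITA, encoded by Ciita, is the coactivator that class II promoters need. It does not bind DNA itself but docks on a complex of RFX, CREB and NF-Y factors at the conserved X and Y boxes, and interferon gamma induces it, in part through IRF1. In liver the pathway is best known from Kupffer cells, dendritic cells, B cells and sinusoidal endothelial cells, while hepatocytes normally carry little class II.

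Promoter sequence in the RefSeq table (build GRCm38.p6, 250 bases before to 50 bases after each start) was found for 5 of the 8 genes, namely H2-Aa, H2-Eb1, H2-DMb1, H2-DMa and Ctss. H2-Ab1, Cd74 and Ciita have no entry. The stretches that hold the X and Y box letters are printed for the 3 genes that have both, because CIITA works through these boxes. Capitals mark the X box letters (CTNGNAAC, first) and the Y box letters (ATTGG, the inverted CCAAT box that NF-Y reads, second). Each runs 5′ to 3′ on the strand of its gene, and both lie upstream of the start.
H2-Aa, chr17:34287855-34287919, minus strand: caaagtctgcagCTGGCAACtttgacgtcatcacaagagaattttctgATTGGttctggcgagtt
H2-Eb1, chr17:34305761-34305824, plus strand: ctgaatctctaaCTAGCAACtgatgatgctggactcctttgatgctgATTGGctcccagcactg
H2-DMb1, chr17:34153082-34153146, plus strand: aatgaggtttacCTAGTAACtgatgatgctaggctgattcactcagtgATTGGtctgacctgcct

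The first base of the X box letters lies 36 bases before that of the Y box letters in H2-Aa and H2-DMb1 and 35 bases before it in H2-Eb1. H2-Aa also has the CREB core letters TGACG between the boxes, read on both strands as the overlapping tgacgtca. Searched on both strands, CTNGNAAC was in 13.2% of the 32851 promoters of the table, ATTGG in 37.4% and TGACG in 20.8%. An X box followed by a Y box in the same orientation at a distance of 20 to 40 bases was in 0.274% of them, 90 promoters of 85 genes, which also hold H2-Ob. The X box letters were chosen after these promoters had been read, so the match is a description. In neither of the H2-DMa promoters nor in that of Ctss was the pair found. The promoter of Ctss is shown for the letters GAAANNGAA of the interferon response element, in capitals, which were in 8.56% of all promoters on either strand.
Ctss, chr3:95526753-95526785, plus strand: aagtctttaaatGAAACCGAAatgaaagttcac

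Khk itself was read first, as a check of the labels. It stood at 266 ± 59.9 CPM in LFD and 264 ± 39.8 in HFD, at 12.7 ± 3.85 with the siRNA and at 120 ± 24.1 with the inhibitor (n = 4 each). Against HFD, Khk RNA was 20.9-fold lower with the siRNA (edgeR quasi-likelihood test, adjusted p = 1.88e-08) and 2.21-fold lower with the inhibitor (adjusted p = 0.000752). The liver markers set for the tissue were high in every library, with group means of 29900 to 57200 CPM for albumin (Alb).

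Per kb of transcript, the invariant chain was the most abundant of the 8 genes in every group, and Ciita the least. In HFD, the level per kb was 47.7 ± 8.51 CPM for Cd74, 23.9 ± 5.66 for H2-Aa, 20.5 ± 1.67 for Ctss, 18.8 ± 4.24 for H2-Ab1 and 11.5 ± 3.54 for H2-Eb1. The peptide exchange chains were lower, at 3.20 ± 0.327 CPM per kb for H2-DMa and 1.98 ± 0.302 for H2-DMb1, and Ciita stood at 0.853 ± 0.231. In this order Ctss differed from its neighbours H2-Aa and H2-Ab1 by less than the SD of either chain.

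A few libraries stood at the end of their group for nearly the whole pathway. In HFD + siRNA, replicate 2 was the lowest of its group in all 8 genes. In HFD, replicate 3 was the lowest in all 8 and replicate 2 the highest in 7 of 8. In LFD, replicate 3 was the lowest in 7 of 8. No library passed Dixon's outlier test in any of the 32 gene and group combinations, so all were kept.

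Cd74, the invariant chain, had 64.6, 119, 59.9 and 95.7 CPM in the LFD mice and 65.5, 81.1, 52.2 and 70.5 in the HFD mice. With the siRNA it had 51.9, 33.5, 68.3 and 70.4 CPM, and with the inhibitor 39.8, 26.1, 40.2 and 33.3. Every inhibitor library was below every HFD and LFD library, while replicate 2 of the siRNA group lay among the inhibitor libraries.

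H2-Aa, the alpha chain of the I-A molecule, had 21.1, 42.5, 20.8 and 38.7 CPM in LFD and 27.1, 34.7, 19.1 and 26.7 in HFD. It had 19.1, 12, 27.0 and 22.6 CPM with the siRNA and 15.5, 10.0, 13.9 and 13.7 with the inhibitor. As with Cd74, the inhibitor group lay wholly below both control groups and overlapped the siRNA group through replicate 2. H2-Ab1, the beta chain that pairs with it, had 19.4, 35.6, 22.3 and 41.2 CPM in LFD and 22.4, 28.6, 16.1 and 23.8 in HFD. It had 17.6, 8.85, 24.7 and 23.1 CPM with the siRNA and 12.7, 7.54, 13 and 9.53 with the inhibitor, again with no overlap between inhibitor and control libraries.

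H2-Eb1 encodes the beta chain of the I-E molecule. It had 18.0, 37.9, 16.3 and 31.9 CPM in LFD, 20, 25.8, 11.4 and 19.5 in HFD, 13.7, 8.59, 18.0 and 19.5 with the siRNA and 11.6, 6.72, 8.32 and 8.31 with the inhibitor. Replicate 1 of the inhibitor group and replicate 3 of HFD crossed (11.6 against 11.4 CPM), so these groups overlapped. Its partner H2-Ea, which C57BL/6 mice do not express, was at 0 counts in all 16 libraries, and 0 counts allow up to 0.123 CPM in the shallowest library (3 counts, for counting error only).

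H2-DMa, the alpha chain of the exchange factor, had 7.17, 6.20, 5.29 and 7.02 CPM in LFD and 6.59, 7.12, 5.54 and 6.41 in HFD. It had 6.58, 3.53, 5.93 and 8.61 CPM with the siRNA and 5.30, 3.54, 4.53 and 3.33 with the inhibitor, where all 4 libraries were below all of HFD. H2-DMb1, its beta partner, had 2.89, 3.62, 2.45 and 4.02 CPM in LFD, 2.55, 3.26, 2.31 and 2.97 in HFD, 2.97, 2, 3.10 and 3.66 with the siRNA and 1.91, 1.67, 1.17 and 1.29 with the inhibitor. It was the only one of the 8 genes whose inhibitor libraries were below all libraries of the other 3 groups, as they were in 4.17% of all tested genes. H2-DMb1 shares 22.7% of its 50-base words with the near copy H2-DMb2, and 8.43% of the words of H2-DMa lie antisense to Brd2, so reads could be divided between these genes.

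Ciita, the coactivator, had 6.79, 8.53, 3.91 and 7.09 CPM in LFD, 5.17, 6.42, 3.19 and 5.71 in HFD, 4.97, 2.99, 6.56 and 8 with the siRNA and 3.53, 2.41, 2.65 and 2.37 with the inhibitor. The inhibitor libraries were low and close together, and replicate 1 of them was above replicate 3 of HFD. A stretch of Ciita (1.46% of its words) lies antisense to Dexi, which matters if reads were counted without strand. Ctss, the protease, had 19.9, 30.5, 18.8 and 25.2 CPM in LFD, 26.1, 29.6, 25.5 and 29.8 in HFD, 24.2, 22.0, 25.3 and 27.6 with the siRNA and 23.3, 18.7, 25.2 and 21.3 with the inhibitor. Its group means lay between 22.1 and 27.8 CPM, with HFD highest and the inhibitor group lowest.

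**Figure D1:**
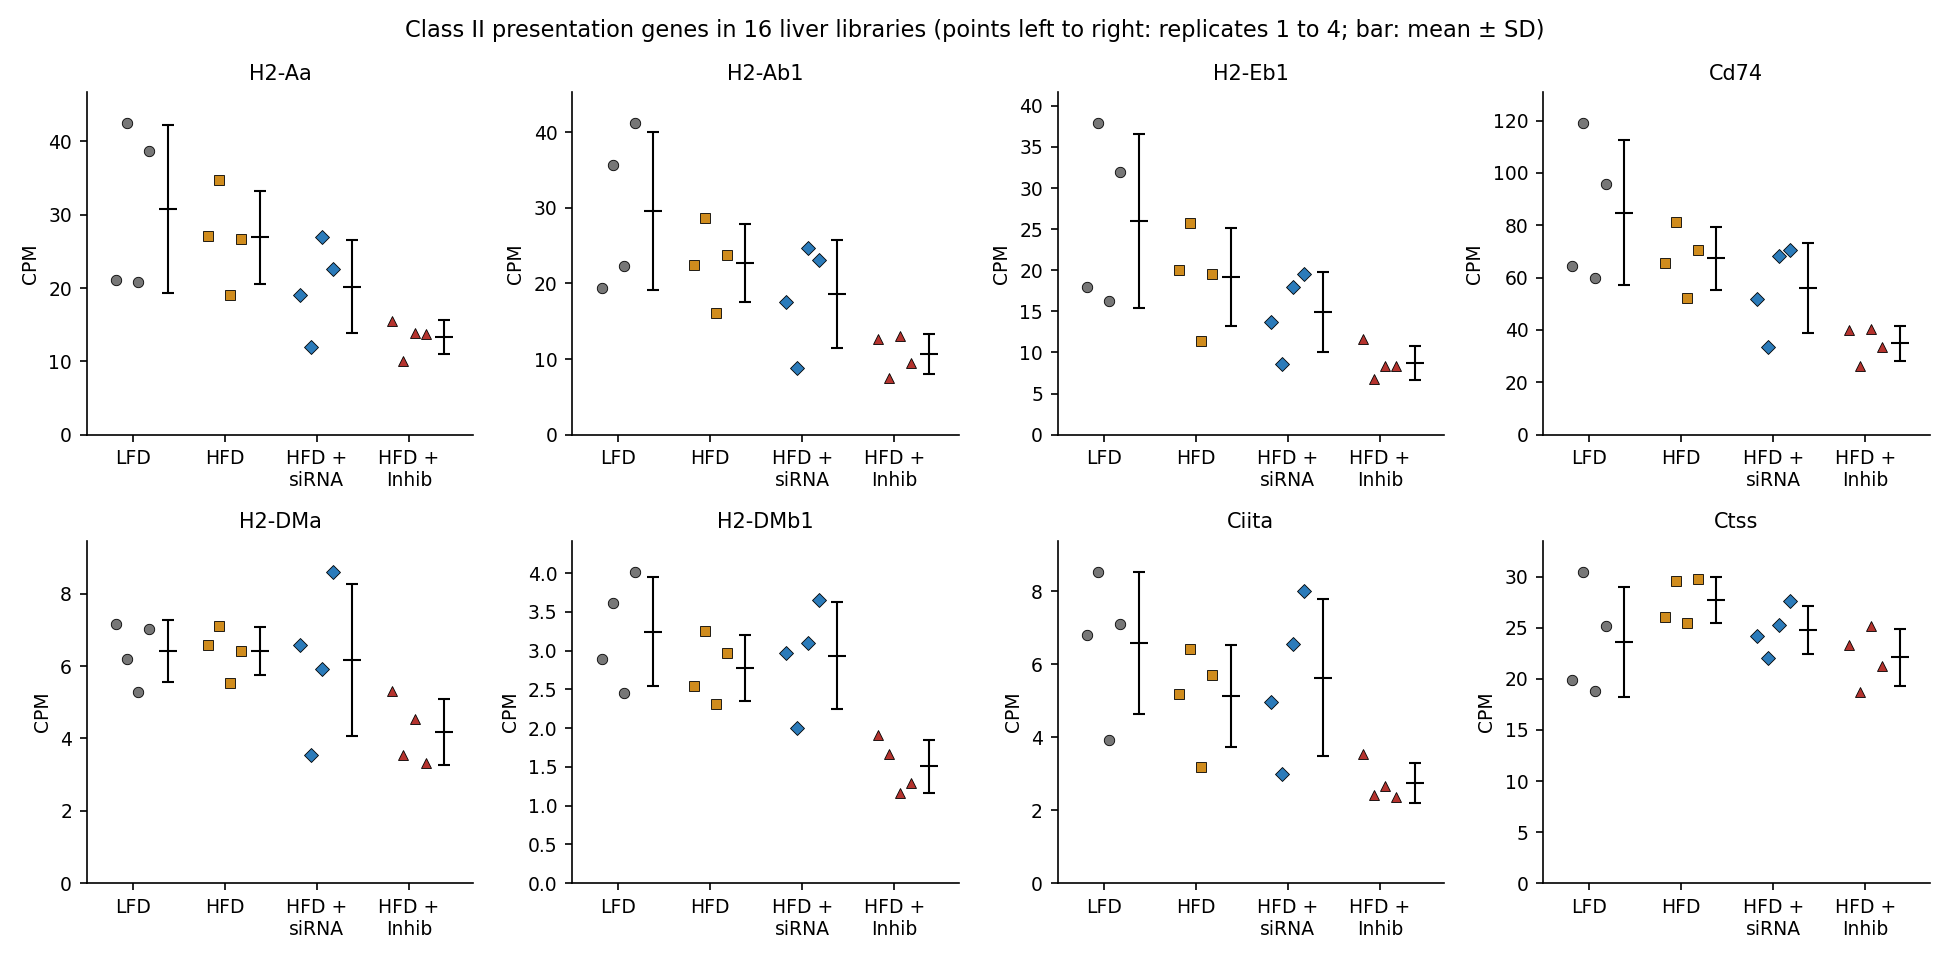
CPM (vertical axis, from 0) of the 8 genes in each library of the 4 groups, with points for replicates 1 to 4 from left to right and the mean ± SD beside them. The inhibitor group has the lowest mean in all 8 panels, and replicate 2 of HFD + siRNA is the lowest point of its group in each panel.

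The first comparison asked whether the high-fat diet changed the pathway. None of the 8 genes passed the test between HFD and LFD at an adjusted p under 0.05 by edgeR or by DESeq2, and none had an unadjusted p under 0.05. Among all tested genes, 9.58% were higher in HFD and 8.80% lower, and 32.7% had an unadjusted p under 0.05. The log2 fold changes of the 8 genes had a median of -0.28, against -0.01 over all tested genes, and the median was -0.14 without LFD replicate 2, -0.17 without HFD replicate 3 and -0.39 without HFD replicate 2. The values ran from -0.44 for H2-Eb1 (SE 0.30, 95% interval -1.07 to 0.19, adjusted p = 0.328) to 0.23 for Ctss (SE 0.14, -0.05 to 0.52, adjusted p = 0.246). For Cd74 the difference was -0.33 (95% interval -0.84 to 0.17, adjusted p = 0.360), and changes within that interval are not excluded. Ctss passed without replicate 2 of LFD (log2 fold change 0.38, adjusted p = 0.0408).

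Knockdown of Khk was compared with HFD next. Again none of the 8 genes passed with either tool and none had an unadjusted p under 0.05, while 5.20% of all tested genes were higher with the siRNA, 6.55% were lower, and 26.9% had an unadjusted p under 0.05. Log2 fold changes were negative in 6 genes and positive in the others, from -0.42 for H2-Aa (SE 0.26, 95% interval -0.97 to 0.14, adjusted p = 0.332) to 0.14 for Ciita (SE 0.28, -0.47 to 0.74, adjusted p = 0.807). The median was -0.21, and it was -0.09 without replicate 2 of the siRNA group, -0.15 without HFD replicate 2 and -0.29 without HFD replicate 3. For Cd74 the difference was -0.26 (SE 0.24, -0.77 to 0.24, adjusted p = 0.518).

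Treatment with the inhibitor gave lower levels of most of the pathway. Against HFD, 6 of the 8 genes fell and none rose, where 8.42% of all tested genes fell and 9.80% rose. The 3 chains fell most, with log2 fold changes of -1.14 for H2-Eb1 (SE 0.31, 2.20-fold lower, adjusted p = 0.0161), -1.09 for H2-Ab1 (SE 0.30, 2.13-fold lower, adjusted p = 0.0177) and -1.02 for H2-Aa (SE 0.27, 2.03-fold lower, adjusted p = 0.0136). The invariant chain Cd74 fell 1.93-fold (log2 fold change -0.95, SE 0.24, adjusted p = 0.0115). H2-DMb1 fell 1.85-fold (-0.89, SE 0.22, adjusted p = 0.0105) and Ciita 1.87-fold (-0.91, SE 0.29, adjusted p = 0.0422). Neither H2-DMa (-0.62, SE 0.22, adjusted p = 0.0561) nor Ctss (-0.33, SE 0.14, adjusted p = 0.112) passed, although H2-DMa did in 3 of 15 alternatives and Ctss in 2. An unadjusted p under 0.05 was seen for all 8 genes and for 30.9% of all tested genes. All inhibitor libraries were below all HFD libraries in 6 of the 8 genes, all but H2-Eb1 and Ciita, and in 10.9% of all tested genes. In bulk liver RNA, fewer cells of a type and less RNA per cell cannot be told apart.

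The median log2 fold change of the 8 genes was -0.93, against 0.00 over all tested genes. Without replicate 2 of HFD, the highest library of that group, the median was -0.82 and 3 genes passed, H2-Aa, H2-DMb1 and Cd74. These 3 passed under every alternative setting at an adjusted p under 0.05, while Ciita lost its call in 8 of 15 alternatives, H2-Ab1 in 3 and H2-Eb1 in 1. Calls over all tested genes went from 3339 to 2597 without replicate 2 of HFD.

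**Figure D2:**
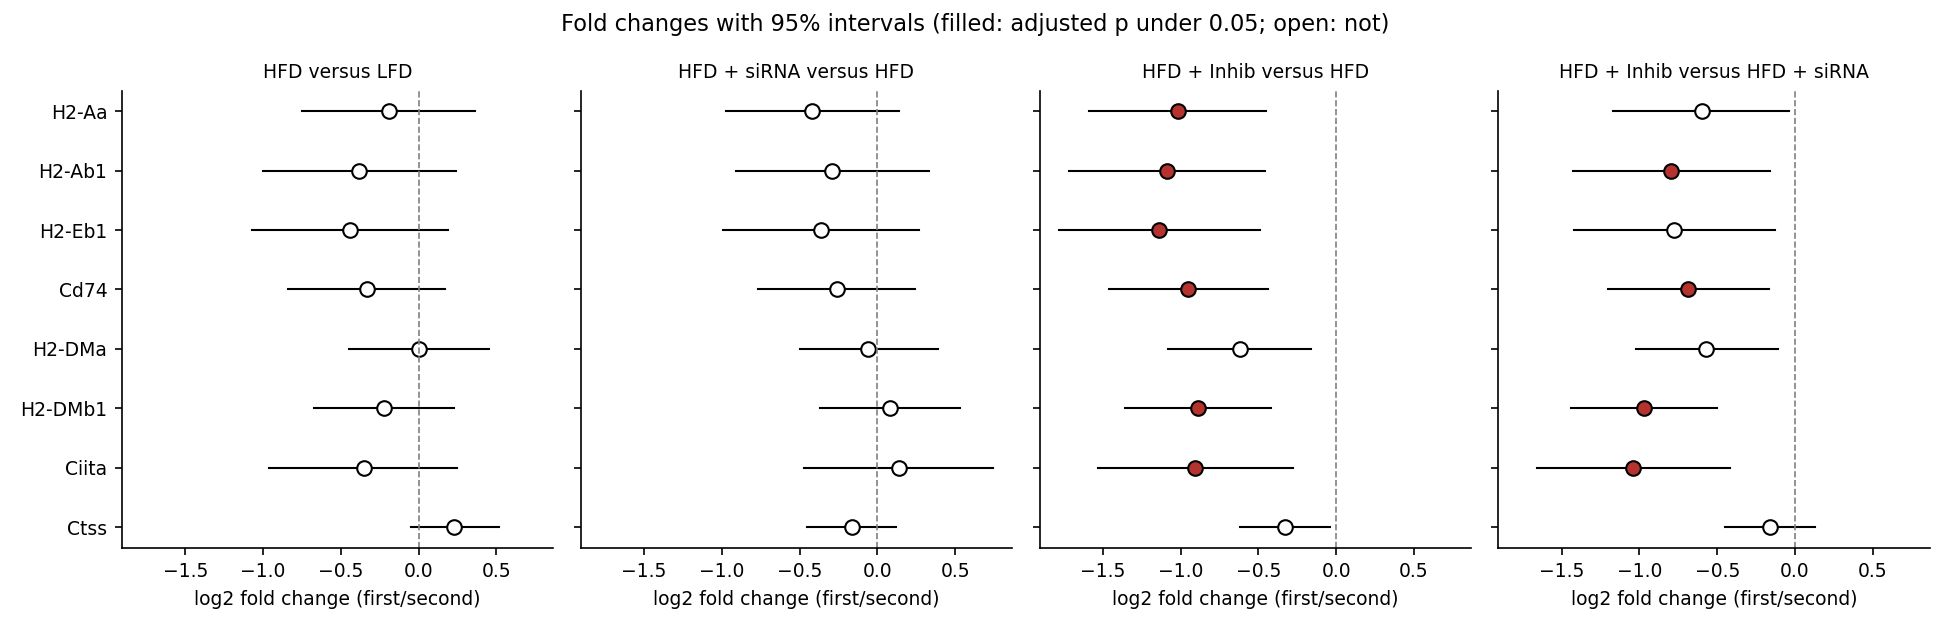
Log2 fold change (horizontal axis) of each of the 8 genes in 4 comparisons, with its 95% interval as a line; filled points passed an adjusted p under 0.05 and open points did not. In HFD + Inhib versus HFD all 8 values are below 0, from -1.14 to -0.33, and 6 are filled.

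The inhibitor and siRNA groups were then compared directly, which tests whether the 2 treatments differ. All 8 genes had lower means with the inhibitor, and 4 of the 8 fell relative to the siRNA group, where 16.6% of all tested genes fell and 17.3% rose. Ciita was 2.06-fold lower with the inhibitor (log2 fold change -1.04, SE 0.29, adjusted p = 0.0122) and H2-DMb1 1.96-fold lower (-0.97, SE 0.22, adjusted p = 0.00325). H2-Ab1 (-0.80, SE 0.30, adjusted p = 0.0493) and Cd74 (-0.69, SE 0.24, adjusted p = 0.0375) were lower as well. H2-Eb1 (-0.78, adjusted p = 0.0612), H2-DMa (-0.57, adjusted p = 0.0530) and H2-Aa (-0.60, adjusted p = 0.0921) did not pass, nor did Ctss (-0.16, 95% interval -0.45 to 0.13, adjusted p = 0.381). All inhibitor libraries were below all siRNA libraries in 1 of the 8 genes, H2-DMb1, and in 15.8% of all tested genes.

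The count depended on single libraries. Without siRNA replicate 2, 7 of the 8 genes passed and the median moved from -0.73 to -0.90, while 1 passed without siRNA replicate 4 and 2 passed without siRNA replicate 1 or 3 or inhibitor replicate 2 or 4. Calls over all tested genes moved too, from 6204 to 6251 without siRNA replicate 2 and to 4934 without siRNA replicate 4. They were 5248 and 5052 without siRNA replicate 1 or 3, and 5891 and 5054 without inhibitor replicate 2 or 4. H2-Ab1 lost its call in 11 of 15 alternatives, Cd74 in 7 and Ciita in 1, and H2-DMb1 kept it in all 15. Fold changes also ran with the GC content of the transcripts over 8342 genes, with Spearman's rho of -0.534 here, -0.272 for the inhibitor against HFD, -0.525 for HFD against LFD, 0.508 for the siRNA group against HFD, -0.0794 for it against LFD and -0.555 for the inhibitor against LFD. These rho values are across genes, which are not independent replicates. Of the 8 transcripts only Ctss, at 45.98% GC, is below the median of 49.68%. The others are above it, from 50.98% for H2-Aa to 57.34% for H2-Ab1. With a correction for GC content and length, 2 genes passed between the inhibitor and siRNA groups, H2-DMb1 (-0.81, adjusted p = 0.0120) and Ciita (-0.81, adjusted p = 0.0486). Under that correction, 4548 of 15858 genes were called in all.

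Relative to LFD, the siRNA group showed no gene that passed by edgeR or DESeq2, with 4.75% of all tested genes higher and 3.88% lower. H2-Eb1 (-0.80, SE 0.30), H2-Ab1 (-0.67, SE 0.29), H2-Aa (-0.61, SE 0.26) and Cd74 (-0.60, SE 0.24) had an unadjusted p under 0.05, as did 21.8% of all tested genes. Their adjusted p-values were 0.118, 0.186, 0.183 and 0.148. The median of the 8 genes was -0.41, and it was -0.23 without siRNA replicate 2 and -0.25 without LFD replicate 2. The inhibitor group was lower than LFD in 7 of the 8 genes, all but Ctss, where 18.2% of all tested genes were lower and 18.8% higher. H2-Eb1 was 2.98-fold lower (log2 fold change -1.57, SE 0.31, adjusted p = 0.000939), H2-Ab1 2.77-fold lower (-1.47, SE 0.30, adjusted p = 0.00130) and Cd74 2.43-fold lower (-1.28, SE 0.24, adjusted p = 0.000746). Ciita (-1.26, adjusted p = 0.00342), H2-Aa (-1.21, adjusted p = 0.00235) and H2-DMb1 (-1.11, adjusted p = 0.00110) followed, and H2-DMa fell least (-0.62, adjusted p = 0.0340). Ctss stood at -0.09 (SE 0.14, 95% interval -0.38 to 0.20), and at -0.31 with the correction for GC content and length, without passing. Comparisons with HFD, with LFD and with the siRNA group share the inhibitor libraries and are not independent of each other.

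Placed in order, the chains H2-Aa, H2-Ab1 and H2-Eb1, with Cd74 and H2-DMa, had their highest mean in LFD, followed by HFD, HFD + siRNA and HFD + Inhib. For H2-DMb1 and Ciita the siRNA group came before HFD. No step between neighbours above the inhibitor group passed the test in any of the 8 genes (adjusted p from 0.328 to 0.995). The last step, down to the inhibitor group, passed for H2-Ab1 and Cd74 from the siRNA group and for H2-DMb1 and Ciita from HFD. Ctss had another order, with HFD first and HFD + Inhib last, and none of its steps passed.

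The genes moved together from mouse to mouse. Over the 16 libraries, Pearson's r of log2 CPM was 0.97 to 0.98 in the 6 pairs among H2-Aa, H2-Ab1, H2-Eb1 and Cd74, and it was 0.91 to 0.97 for their deviations from the group means, within groups only. Pairs with Ciita had r from 0.58 to 0.93 and pairs with Ctss from 0.49 to 0.68, and for deviations from the group means these were 0.71 to 0.91 and 0.49 to 0.90 (median 0.79). These are descriptions over libraries that share their scaling, and no p is given.

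The 10 genes most like the mean profile of the set, out of 12401 compared over 16 libraries by Pearson's r, were Itgb2 (0.913), Itgal (0.910), Themis2 (0.887), Tpcn2 (0.871), Adcy7 (0.868), Tgtp1 (0.866), Hk3 (0.865), Psmb8 (0.861), Akna (0.860) and Cbl (0.859). They were chosen for a profile that is itself lowest in the inhibitor group, so their values are a description with no test. Itgb2 and Itgal encode the chains of LFA-1, an integrin of leukocytes. Itgb2 stood at 7.82 ± 1.18 CPM in HFD and 5.36 ± 0.904 with the inhibitor, and Itgal at 14.8 ± 1.32 and 9.92 ± 2.55 CPM. Tgtp1, an interferon-induced GTPase with a near copy that may share its reads, stood at 8.46 ± 3.59 CPM in HFD and 1.58 ± 0.612 with the inhibitor. Psmb8, a catalytic subunit of the immunoproteasome that is also in the class I list, stood at 21.2 ± 3.90 and 8.76 ± 0.967 CPM. For Adcy7, Akna, Cbl, Themis2, Tpcn2 and Hk3 the log2 fold change between these groups ran from -0.72 (Adcy7) to -0.29 (Cbl).

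**Figure D3:**
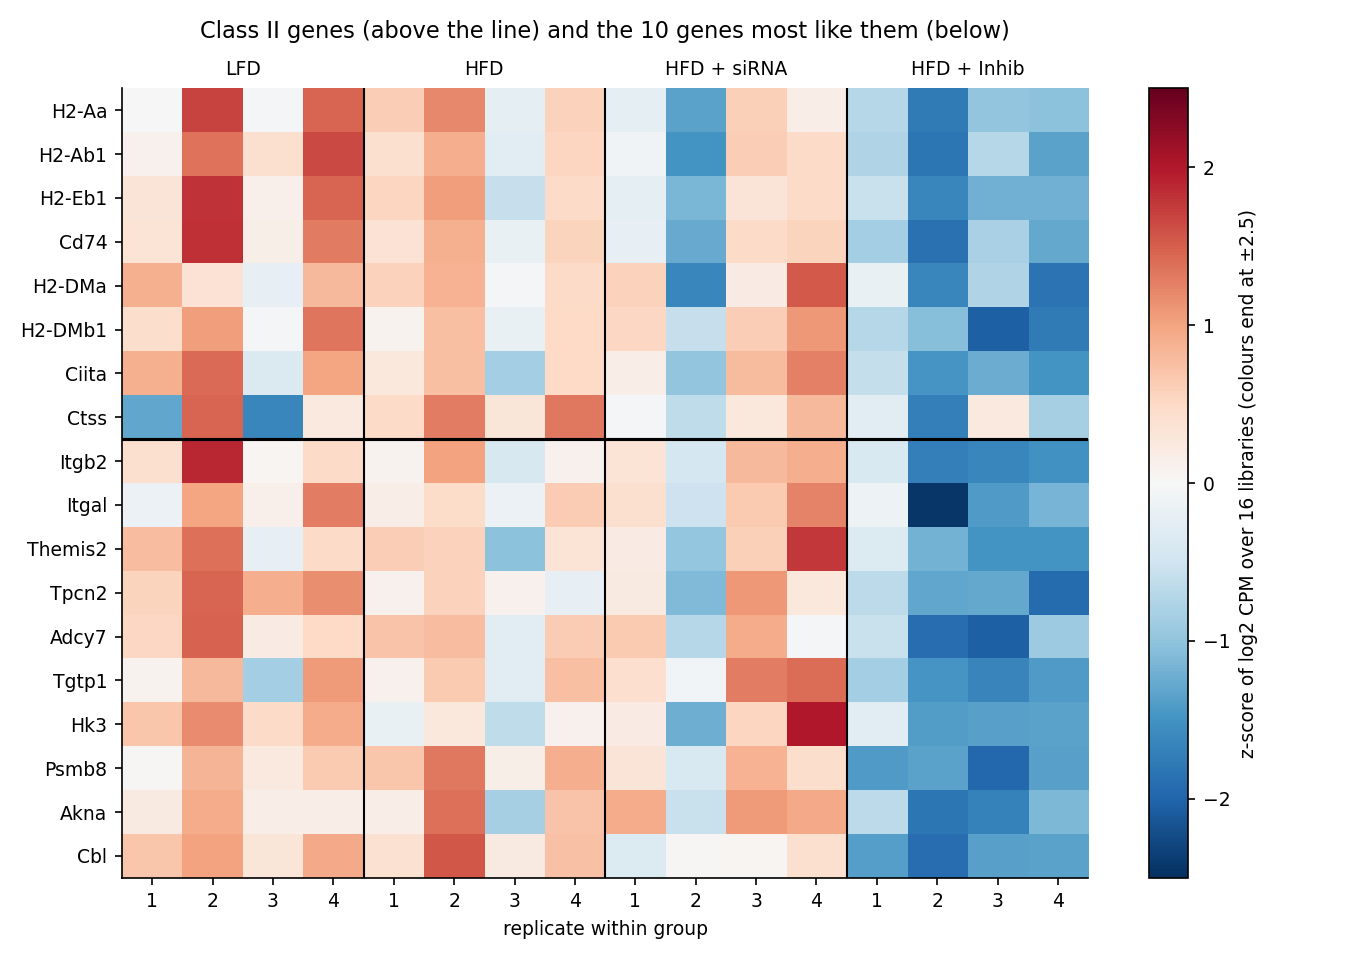
Z-scores of log2 CPM over the 16 libraries (colour scale, ending at ±2.5) for the 8 genes, above the black line, and the 10 genes with the most similar profile, below it, with libraries in columns by group. The columns of HFD + Inhib and replicate 2 of HFD + siRNA are mostly blue (below the mean), and replicates 2 and 4 of LFD are mostly red.

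Other class II genes were sparse. H2-Ob and H2-DMb2 were tested, while H2-Oa and H2-Eb2 were below the filter. H2-DMb2 stood at 0.681 ± 0.18 CPM in HFD and 0.351 ± 0.156 with the inhibitor (log2 fold change -0.97, adjusted p = 0.106), while the inhibitor group was lower than the siRNA group (-1.13, adjusted p = 0.0353) and LFD (-1.21, adjusted p = 0.0244). H2-Ob, a chain of the DM inhibitor H2-DO, went from 0.821 ± 0.196 to 0.595 ± 0.222 CPM without passing (adjusted p = 0.342).

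Of the 7 factors of the class II promoter complex, 1 fell with the inhibitor against HFD, where 8.42% of all tested genes fell. Rfx5, the DNA-binding RFX subunit, went from 15.7 ± 2.03 to 10.2 ± 1.24 CPM (log2 fold change -0.62, SE 0.13, adjusted p = 0.00365). On the high-fat diet Rfx5 had risen (0.48, adjusted p = 0.0210) and its partners Rfxap (-0.57, adjusted p = 0.0138) and Rfxank (-0.57, adjusted p = 0.0489) had fallen against LFD. Among all tested genes, 9.58% were higher and 8.80% lower in HFD than in LFD. Nfyb, which had the highest CPM of the list in HFD, stood at 27.7 ± 2.37 CPM there and 25.8 ± 4.74 with the inhibitor (adjusted p = 0.607), where Creb1 was higher at 28.1 ± 2.93. With the siRNA, Creb1 fell against HFD (-0.40, adjusted p = 0.0200), the only call among the 7, where 6.55% of all tested genes fell and 5.20% rose. Between the inhibitor and siRNA groups Rfx5 (-0.47, adjusted p = 0.0121) and Rfxank (-0.72, adjusted p = 0.00923) were lower and Creb1 (0.45, adjusted p = 0.00283) higher, where 16.6% of all tested genes were lower and 17.3% higher.

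Interferon gamma signalling was represented by 10 genes, 9 of them tested. Ifng itself was below the filter, at 0.0278 ± 0.0370 CPM in HFD and 0.0172 ± 0.0202 with the inhibitor. Irf1, a transcription factor that drives Ciita, fell from 29.8 ± 3.83 to 17.3 ± 2.46 CPM with the inhibitor (log2 fold change -0.79, SE 0.23, adjusted p = 0.0221), and the receptor chain Ifngr1 fell by 0.38 (SE 0.09, adjusted p = 0.00889). Against the siRNA group 4 of the 9 were lower (16.6% of all tested genes), among them Irf1 (-0.97, adjusted p = 0.00356), Irf8 (-0.59, adjusted p = 0.0229) and Ifngr1 (-0.31, adjusted p = 0.0164), and Ifngr2 was higher (0.45, adjusted p = 0.00118). Jak1, with the highest CPM of the list, passed in neither comparison (adjusted p = 0.352 and 0.135). Between the siRNA group and HFD none of the 9 passed edgeR's test, and 2 had an unadjusted p under 0.05, as did 26.9% of all tested genes.

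Several genes of MHC class I presentation, which serves peptides from the cytosol to CD8+ T cells, were lower with the inhibitor too. Of 14 tested genes, 8 fell against HFD and none rose, where 8.42% of all tested genes fell and 9.80% rose. The median log2 fold change of the 14 was -0.54, against 0.00 over all tested genes, and 12 of the 14 values were negative. The immunoproteasome subunits Psmb8 (-1.28, adjusted p = 3.29e-05), Psmb9 (-0.91, adjusted p = 0.0138) and Psmb10 (-0.67, adjusted p = 0.0203) fell, as did the peptide transporter genes Tap1 (-0.85, adjusted p = 0.00643) and Tap2 (-0.78, adjusted p = 0.00368) and the loading factor Tapbp (-0.38, adjusted p = 0.0304). The heavy chains H2-D1, from 370 ± 43.6 to 232 ± 15.2 CPM, and H2-K1, from 691 ± 79.0 to 502 ± 69.2 CPM, fell by 0.68 (adjusted p = 0.000911) and 0.46 (adjusted p = 0.0147) on the log2 scale, with the limit that class I genes are close copies of each other. B2m, with the highest CPM of the list, stood at 970 ± 124 and 809 ± 110 CPM (adjusted p = 0.155), and Nlrc5, the class I counterpart of Ciita, at 32.1 ± 3.04 and 20.9 ± 2.33 CPM (-0.61, adjusted p = 0.0668). Against the siRNA group 9 of the 14 fell, where 16.6% of all tested genes did, and against LFD 7, where 18.2% did. With the siRNA, 1 of the 14 differed from HFD, the chaperone gene Calr, which was higher (0.42, adjusted p = 0.0478), as were 5.20% of all tested genes. Between HFD and LFD none passed edgeR's test, and 3 had an unadjusted p under 0.05, as did 32.7% of all tested genes.

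Against HFD, endosomal proteases and their helpers were called in both directions, where 2 of 8 rose with the inhibitor, Ctsd (0.31, adjusted p = 0.0136) and the cathepsin inhibitor Cst3 (0.49, adjusted p = 0.00765), and 2 fell, Ctsl (-0.30, adjusted p = 0.0382) and the legumain gene Lgmn (-0.38, adjusted p = 0.0226). Among all tested genes, 9.80% rose and 8.42% fell. Ctsl had the highest CPM of the list in both groups, at 458 ± 24.1 in HFD and 373 ± 25.9 with the inhibitor, and Ctsb stood at 384 ± 26.0 and 368 ± 61.2 CPM (adjusted p = 0.766). The 5 tested co-stimulation genes had negative log2 fold changes against HFD (median -0.66), but none passed edgeR's test. An unadjusted p under 0.05 was seen for 2 of them and for 30.9% of all tested genes. Cd274, with the highest CPM of them over all groups, stood at 4.70 ± 1.11 and 4.07 ± 0.760 CPM.

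**Figure D4:**
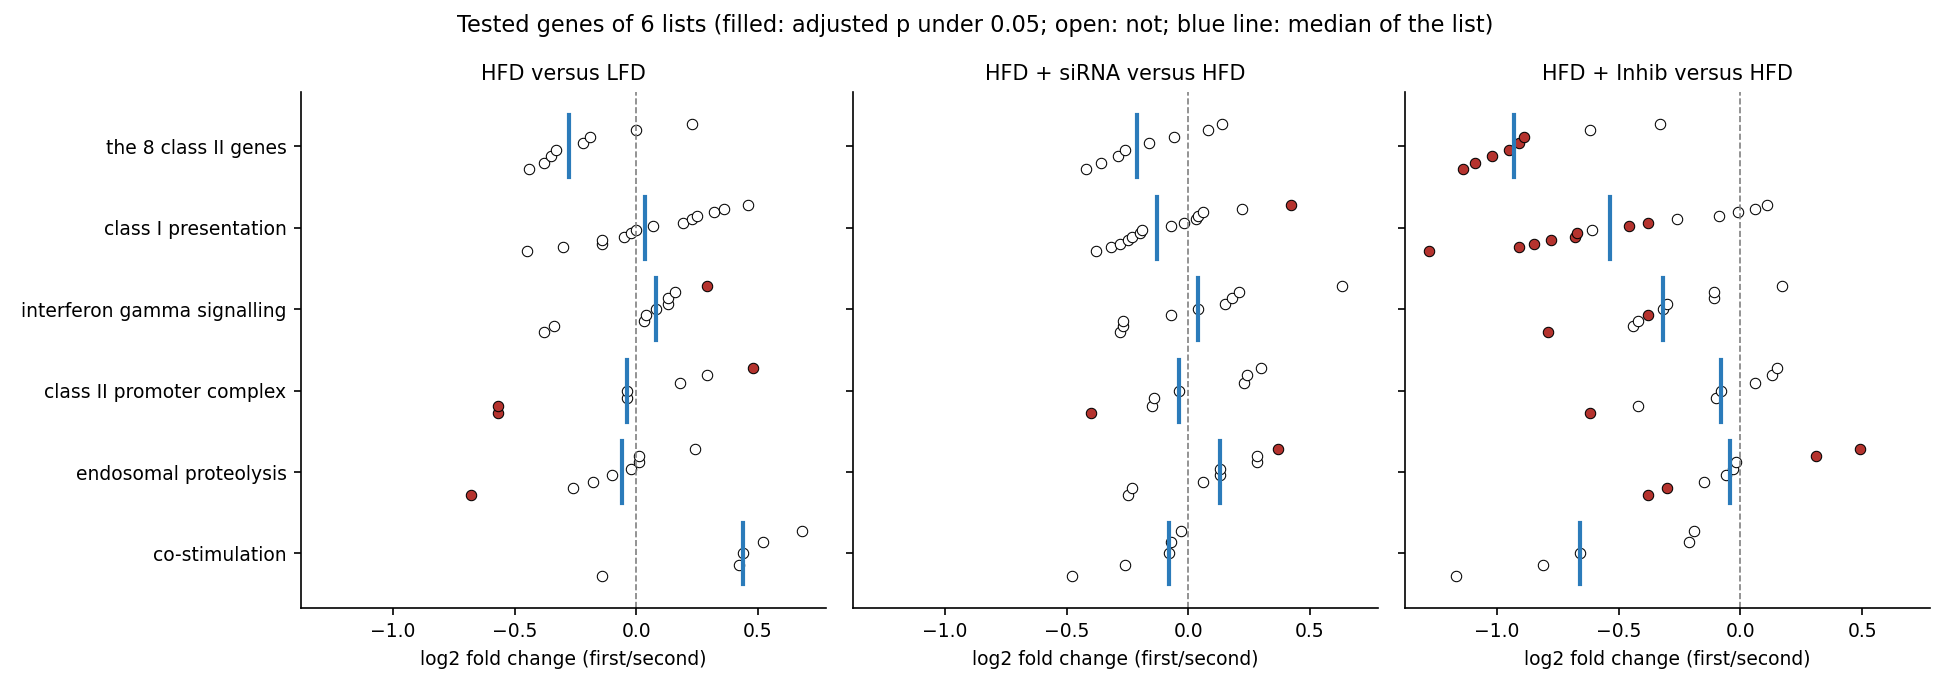
Log2 fold changes (horizontal axis) of the tested genes of 6 lists in 3 comparisons, 1 point a gene, filled where the adjusted p was under 0.05, with the median of each list as a blue line. In HFD + Inhib versus HFD the medians of the 8 class II genes (-0.93), the class I genes (-0.54), the interferon gamma genes (-0.32) and the co-stimulation genes (-0.66, none filled) lie below 0, while those of the promoter complex (-0.08) and of endosomal proteolysis (-0.04) lie near it.

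Marker genes of the cells that can carry class II, and of other liver cells, were read beside the pathway. Of 5 leukocyte markers, 3 fell with the inhibitor against HFD (8.42% of all tested genes). They were Laptm5, which had the highest CPM in HFD (16.5 ± 1.92 to 10.7 ± 1.57, -0.63, adjusted p = 0.00379), Cd52 (-0.78, adjusted p = 0.00765) and Coro1a (-1.17, adjusted p = 0.0189). Ptprc, the common leukocyte antigen, stood at 14.9 ± 1.20 and 11.2 ± 2.22 CPM (-0.42, adjusted p = 0.120). The summed level of the 5 was 32.0, 43.1, 30.2 and 41.4 CPM in LFD, 44.4, 46.2, 38.7 and 48.7 in HFD, 40.3, 31.1, 42.3 and 42.7 with the siRNA and 37.7, 26.9, 26.5 and 30.2 with the inhibitor. The inhibitor libraries were below those of HFD here, and replicate 2 of the siRNA group was again the lowest of its group.

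Kupffer cell markers had 2 of 10 lower with the inhibitor against HFD (8.42% of all tested genes). These were Clec4f, which had the highest CPM over all groups (76.1 ± 7.30 to 53.4 ± 7.93 CPM, -0.51, adjusted p = 0.00756), and Cd5l (-0.54, adjusted p = 0.0299). Against the siRNA group 7 of the 10 were lower (16.6% of all tested genes), among them Clec4f (-0.80, adjusted p = 0.000139), C1qb (-0.73, adjusted p = 0.00128) and Csf1r (-0.61, adjusted p = 0.00479). Their sum was 299, 416, 309 and 320 CPM in LFD, 317, 325, 285 and 355 in HFD, 382, 319, 400 and 454 with the siRNA and 305, 203, 234 and 254 with the inhibitor. Kupffer cell markers had their highest mean sum in the siRNA group, but none of the 10 passed edgeR's test against HFD. An unadjusted p under 0.05 was seen for 3 of the 10 and for 26.9% of all tested genes.

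T cell markers were low, and 3 of 6 tested fell with the inhibitor against HFD (8.42% of all tested genes). They were Cd4, which had the highest CPM in HFD (1.18 ± 0.238 to 0.299 ± 0.0901, -1.98, adjusted p = 0.000538), Trac (-1.55, adjusted p = 0.00972) and Lck (-1.19, adjusted p = 0.0418). Cd4 rose with the siRNA against HFD, to 3.66 ± 1.33 CPM (1.62, adjusted p = 0.00202), and no other T cell marker did, where 5.20% of all tested genes rose. The T cell sum was 3.65, 7.35, 2.69 and 4.07 CPM in HFD, 4.56, 6.15, 6.24 and 7.53 with the siRNA and 2.54, 1.63, 1.42 and 1.5 with the inhibitor. Of 8 B cell markers, 2 fell with the inhibitor against HFD (8.42% of all tested genes), among them Ms4a1 (-2.31, adjusted p = 0.00150). Ms4a1 was near the floor, with 2 to 6 counts in each inhibitor library (0.139 ± 0.0631 CPM). Ighm, with the highest CPM, stood at 14.5 ± 9.53 and 7.47 ± 4.81 CPM (adjusted p = 0.126). B cell sums ranged from 15.1 to 36.1 CPM in HFD and from 8.52 to 18.0 with the inhibitor.

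Dendritic cell markers had 1 of 9 tested lower with the inhibitor against HFD, Siglech of plasmacytoid dendritic cells (-1.54, adjusted p = 0.00211, 6 to 9 counts in each inhibitor library), where 8.42% of all tested genes were lower. Their sum ranged from 21.9 to 25.5 CPM in HFD and was 20.8, 18.3, 20.6 and 34.3 with the inhibitor, where Cd24a gave 16.9 CPM of the last, and the other 3 inhibitor libraries were below HFD. Zbtb46, which had the highest CPM over all groups, stood at 12.8 ± 1.1 and 10.9 ± 1.16 (adjusted p = 0.158). Clec9a, a marker of conventional dendritic cells, stood at 4.24 ± 0.569 and 3.76 ± 0.343 CPM (adjusted p = 0.547). None of the 6 monocyte markers passed edgeR's test, with 1 at an unadjusted p under 0.05 (30.9% of all tested genes), sums of 5.54 to 8.21 and 4.56 to 7.07 CPM and Fcgr1 at 2.56 ± 0.562 and 1.98 ± 0.631 CPM. Endothelial markers had 1 of 6 higher, Lyve1 (0.86, adjusted p = 0.0310), where 9.80% of all tested genes were higher. Stab2, a scavenger receptor of sinusoidal cells, stood at 117 ± 9.35 and 109 ± 5.81 CPM. Lipid-associated macrophage markers split, with Lpl (3.17, adjusted p = 3.44e-06) and Cd9 (0.71, adjusted p = 0.000893) higher and Trem2 (-1.56, adjusted p = 0.0468, 4 to 11 counts in each inhibitor library) lower, against the same shares of 9.80% and 8.42%.

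Stellate cell markers had 2 of 6 lower with the inhibitor against HFD (8.42% of all tested genes), Reln (-0.66, adjusted p = 0.000251) and Colec11 (-0.39, adjusted p = 0.0259). None of 5 bile duct markers passed edgeR's test or had an unadjusted p under 0.05, which 30.9% of all tested genes had (Spp1, the highest, at 27.2 ± 6.76 and 21.2 ± 5.20 CPM). Of 7 hepatocyte markers, 3 fell with the inhibitor against HFD (8.42% of all tested genes), Alb (51000 ± 5510 to 29900 ± 1760 CPM, -0.77, adjusted p = 0.000761), Ttr (-0.93, adjusted p = 5.55e-05) and Cps1 (-0.53, adjusted p = 0.0146). The hepatocyte sum was 54800 to 68400 CPM in HFD and 37100 to 41000 with the inhibitor. No marker of these cell type lists was at 0 in all libraries. Summed levels of the leukocyte, T cell, hepatocyte and stellate cell markers (360 to 445 CPM in HFD and 274 to 315 with the inhibitor for the last) were lower in all inhibitor libraries than in all HFD libraries. Kupffer cell sums overlapped between these groups through inhibitor replicate 1 alone (305 CPM), and B cell sums through inhibitor replicate 3 alone (18.0 CPM). In each of these lists 2 genes were lower. The sum of the lipid-associated macrophage markers was higher in all inhibitor libraries (48.1 to 64.4 CPM in HFD and 156 to 291 with the inhibitor). Lpl carried that sum, with 20.9 ± 1.03 CPM in HFD and 189 ± 53.5 with the inhibitor, and 4 of the 6 markers had negative log2 fold changes. The part of these cell types in the class II result was not tested.

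**Figure D5:**
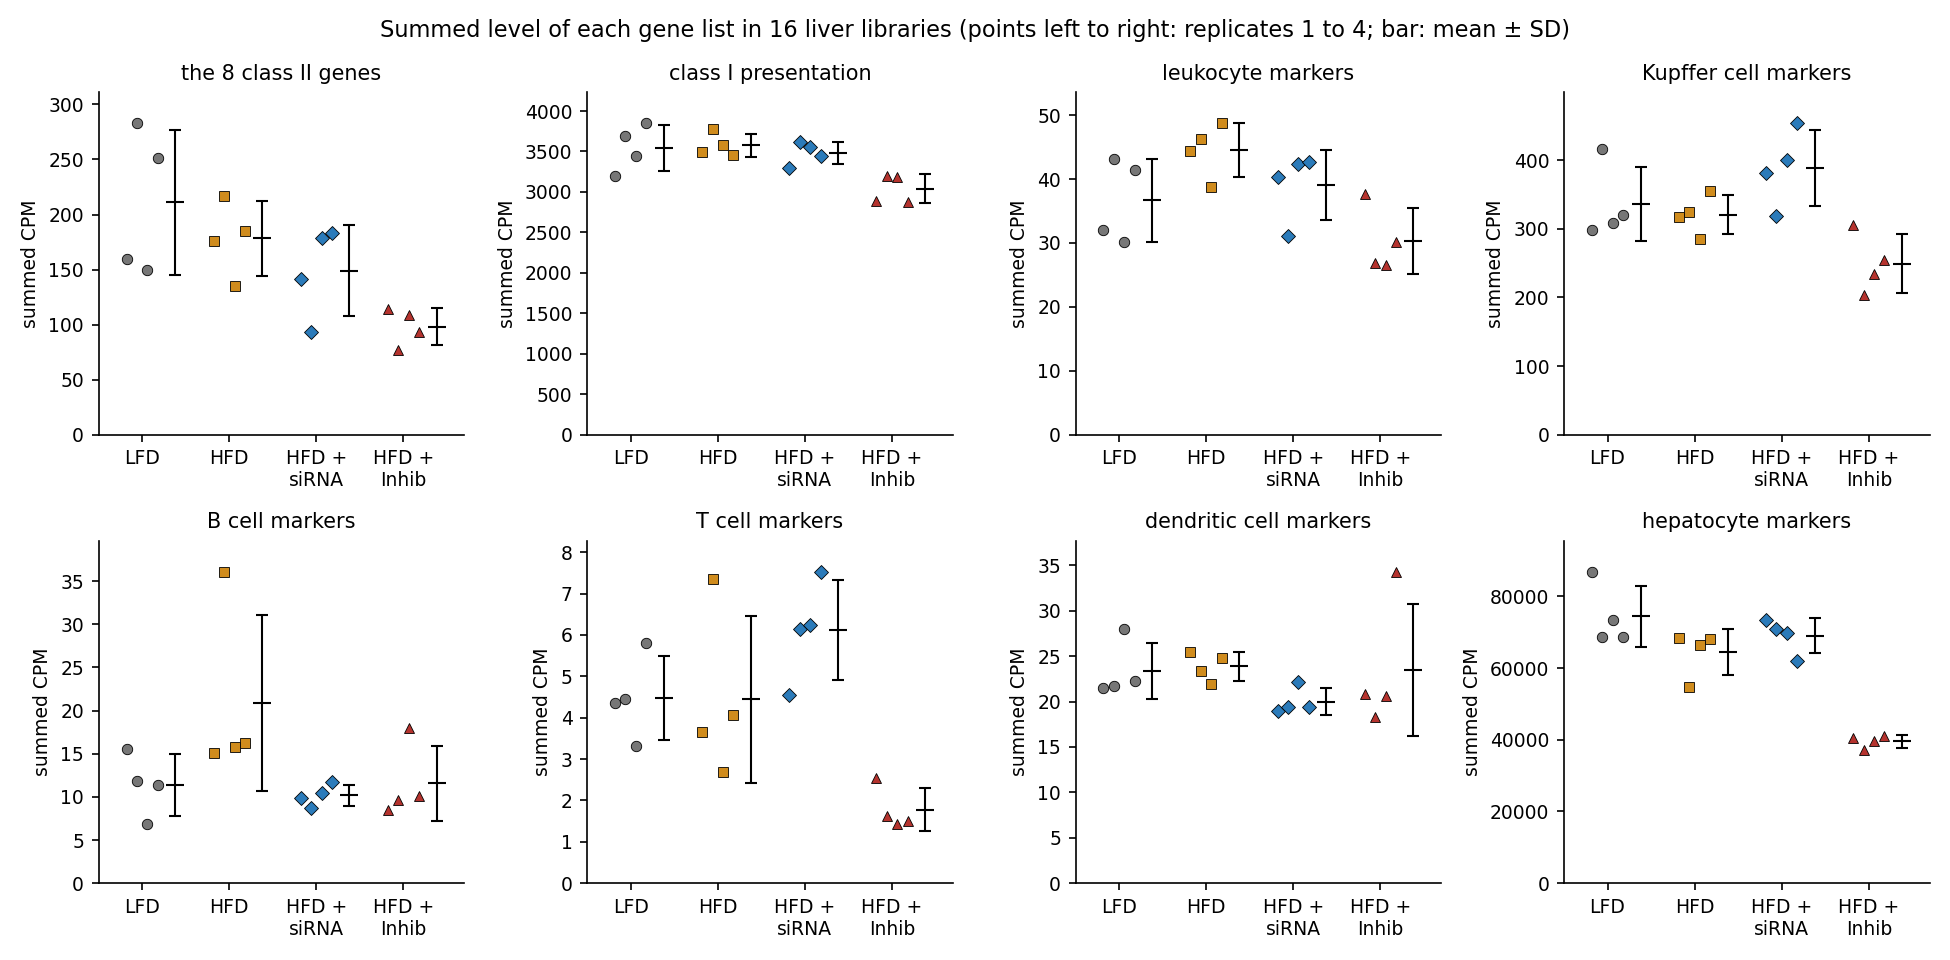
Summed CPM (vertical axes, from 0, each on its own scale) of the 8 class II genes, the class I list and 6 cell type marker lists in each library, with points for replicates 1 to 4 from left to right and the mean ± SD beside them. In the panels of the class II genes, class I genes, leukocyte, T cell and hepatocyte markers, all inhibitor libraries lie below all HFD libraries. The sums overlap through a single inhibitor library for Kupffer cell (replicate 1), B cell (replicate 3) and dendritic cell markers (replicate 4).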

How the data were processed

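Expected counts by gene symbol, unscaled, were deposited for the 16 libraries in 1 table, which the submitters' processing notes tie to STAR and RSEM with build mm39 (versions not given in the sources used here). RSEM divides reads that match several genes, so 15.1% of the deposited values are not whole, and whether reads were counted by strand is not stated. The study's methods name HTG EdgeSeq, a probe assay, which does not yield RSEM estimates, so the assay behind the table is uncertain. Some mice may have received insulin before tissue collection, and the labels do not say which. Promoters are from RefSeq on GRCm38.p6, a build other than that of the counts, so gene positions are given for promoters only.

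Expected counts were rounded and filtered by filterByExpr (minimum count 10, minimum total 15), which left 18335 genes. Libraries were scaled by TMM (factors 0.929 to 1.09). All 16 libraries entered 1 edgeR quasi-likelihood fit (12 residual degrees of freedom, common dispersion 0.0380), giving 6 comparisons whose p-values were adjusted by Benjamini-Hochberg over 18335 genes each (threshold 0.05). Errors are SD over 4 mice or SE of the fit, and intervals are 95%. Levels per kb use the longest protein-coding transcript of GENCODE M21. The labels say no more of how the mice of a group were raised or handled, so p-values measure the spread between these samples.

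Named genes were the 8 genes, Khk, list members that passed or had the highest CPM of their list, and the 10 genes outside the set with the highest Pearson correlation to its mean z-score (log2 CPM, prior count 2, average log2 CPM of at least 1). A few others are named as defining markers after their values were seen. Some list members are counted but not reported here by name. Genes and lists were chosen with earlier results of these data known. Library pairs of a group differed by more than sampling noise, so none was counted as a repeat.

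Alternatives were DESeq2, its size factors (RLE) in edgeR, no filter, at least 10 counts in every library, the 2 compared groups alone, the replicate block, offsets for GC content and transcript length (15858 genes, 86.5% of those tested), each library left out and a threshold of 0.01. The scripts were tested on simulated data. Versions were edgeR 4.0.16 and DESeq2 1.42.0 under R 4.3.3, and Python 3.11.15.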

Additional observations from a re-analysis of the deposited data

How the results depend on the processing

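Over all alternatives, 654 single-gene values kept their direction and their side of the threshold, 36 lost a call, 14 gained one and 16 changed sign, none of these 16 called as reported. Between the inhibitor and HFD, 6 genes were called, 8 with the 2 groups alone, 7 with DESeq2, 5 with the replicate block, 3 to 7 with 1 library left out (3 without replicate 2 of HFD) and 0 at an adjusted p under 0.01, where edgeR had 8 at an unadjusted p under 0.05. Between the inhibitor and the siRNA group, 4 genes were called, 6 with DESeq2, 2 with the replicate block, 2 with the GC content and length correction, 1 at an adjusted p under 0.01 and 1 to 7 with 1 library left out (2 without siRNA replicate 1 or 3 or inhibitor replicate 2 or 4, 1 without siRNA replicate 4, 7 without siRNA replicate 2). Replicate numbers were not taken to pair mice: deviations of same-numbered libraries correlated at -0.132 to 0.336, over 0.1 in 6 of 24 pairs, and not every library correlated best with its own number (20 of 48 cases, above the 12 expected if numbers carried nothing), so a partial sharing by number is not excluded. Between HFD and LFD, 0 to 1 genes were called with 1 library left out. Against LFD, the inhibitor calls other than H2-DMa held in every alternative at 0.05, and H2-DMb1 held in all 3 inhibitor comparisons.

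H2-DMa in HFD against LFD stood at -0.0010 with DESeq2 and -0.0011 with RLE, and H2-DMb1 with the siRNA against HFD at -0.10 with the GC content and length correction. With 1 library left out, HFD against LFD ran from -0.08 to 0.07 for H2-DMa and from -0.34 to 0.01 for H2-Aa. The siRNA group against HFD ran from -0.10 to 0.32 for Ciita, -0.28 to 0.11 for H2-DMa and -0.06 to 0.20 for H2-DMb1. Against LFD, the siRNA group ran from -0.27 to 0.12 for H2-DMa and -0.03 to 0.20 for Ctss, and the inhibitor group from -0.18 to 0.05 for Ctss. Over all genes, calls between the siRNA group and HFD went from 2154 to 1424 with the GC content and length correction and to 1100 without HFD replicate 3. Calls between the siRNA group and LFD went from 1582 to 808 with the 2 groups alone and to 965 without siRNA replicate 3, and those between HFD and LFD from 3370 to 2001 without LFD replicate 3. Those between the inhibitor and siRNA groups went from 6204 to 4548 with the GC content and length correction and to 4934 without siRNA replicate 4. Inhibitor calls against HFD went from 3339 to 2597 without HFD replicate 2. Depth limits Ifng, H2-Oa and H2-Eb2, which were not tested. The cause of these shifts was not tested.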

Other observations

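The summed level of the 8 class II genes was also divided by that of the 5 leukocyte markers in each library, a ratio chosen after the values were seen and given with no test. It was 5.65 ± 0.803 in LFD (4.96 to 6.58), 3.99 ± 0.507 in HFD (3.5 to 4.69), 3.76 ± 0.617 with the siRNA (3.01 to 4.29) and 3.26 ± 0.567 with the inhibitor (2.85 to 4.10). All LFD libraries were above all others on this ratio, and the inhibitor libraries overlapped those of HFD and of the siRNA group. Divided by the 10 Kupffer cell markers, the class II sum gave 0.621 ± 0.137 in LFD, 0.554 ± 0.0813 in HFD, 0.378 ± 0.0652 with the siRNA and 0.396 ± 0.0470 with the inhibitor. On that ratio both treated groups were below all HFD libraries (0.475 to 0.666), the siRNA group with 0.293 to 0.447 and the inhibitor group with 0.368 to 0.466. The Kupffer cell sum itself was higher with the siRNA (389 ± 55.8 CPM) than in HFD (321 ± 28.7), which lowers the ratio. None of the 8 class II genes passed between the siRNA group and HFD, and the ratio was not tested.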
